A study of Homo sapiens with 12 samples.

Results

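The ADAM and ADAMTS proteases examined here were the 10 genes ADAM8, ADAM9, ADAM10, ADAM12, ADAM15, ADAM17, ADAM19, ADAMTS1, ADAMTS6 and ADAMTS9, each found by its symbol as 1 of the 24331 features in the deposited expression table. RNA-sequencing covered MDA-MB-231 cells, a mesenchymal triple-negative breast cancer line, at 0, 6 and 24 h of PMA/Ionomycin, where PMA is a phorbol ester that activates protein kinase C and Ionomycin is a calcium ionophore. Wild type (WT) cells were set beside ΔCRE cells (KO, CRE deleted), in which CRISPR/Cas9 with a pair of guides removed the part with the NFAT and NF-κB sites from the core regulatory element upstream of ETS1, a transcription factor gene, and left the rest of the element in place. Each of the 6 conditions had 2 replicate libraries, 12 in all, and no agent other than PMA/Ionomycin separates the groups. The number of ΔCRE clones behind the libraries is not given in the sources used here, so the deletion and a property of a clone cannot be told apart. The study's methods call the replicates biological and do not say whether they came from separate cultures, so p-values measure the spread between these libraries, which may be technical.

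ADAM proteins are membrane-anchored metalloproteinases with a disintegrin domain, and many of them cut the outer part of growth factors, cytokines, receptors and adhesion molecules from the cell surface, a step called shedding. ADAM17 releases TNF and several EGF receptor ligands and is known for its activation by phorbol esters, while ADAM10 cuts Notch receptors, ephrins and cadherins. ADAMTS proteins are secreted, carry thrombospondin type repeats and cut matrix proteins such as versican and aggrecan. In carcinoma cells both families are studied for their part in invasion and growth factor signalling.

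The RefSeq promoter table (GRCh38.p14) held a sequence for 7 of the 10 genes, and none for ADAM9, ADAMTS1 or ADAMTS9. The 250 bases upstream of the start are shown for ADAM8, ADAM15 and ADAM10. The ADAM8 and ADAM15 transcripts were lower in ΔCRE cells, as was that of ADAMTS9, and that of ADAM10 did not pass the test between genotypes. Capitals mark GGAA, the core that ETS factors bind, or its reverse complement TTCC. Sequences run 5′ to 3′ in the direction of the gene.
ADAM8 (chr10:133276869-133277118, strand minus): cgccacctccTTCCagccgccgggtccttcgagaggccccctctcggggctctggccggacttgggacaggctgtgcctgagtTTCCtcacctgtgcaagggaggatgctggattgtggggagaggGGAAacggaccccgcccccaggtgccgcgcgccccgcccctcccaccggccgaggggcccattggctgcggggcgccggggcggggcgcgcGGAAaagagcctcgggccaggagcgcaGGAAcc
ADAM15 (chr1:155051066-155051315, strand plus): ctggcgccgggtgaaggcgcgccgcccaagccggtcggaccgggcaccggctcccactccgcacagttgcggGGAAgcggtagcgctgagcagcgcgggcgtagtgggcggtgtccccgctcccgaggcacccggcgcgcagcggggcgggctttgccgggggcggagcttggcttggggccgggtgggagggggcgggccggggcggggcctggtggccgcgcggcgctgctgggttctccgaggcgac
ADAM10 (chr15:58749708-58749957, strand minus): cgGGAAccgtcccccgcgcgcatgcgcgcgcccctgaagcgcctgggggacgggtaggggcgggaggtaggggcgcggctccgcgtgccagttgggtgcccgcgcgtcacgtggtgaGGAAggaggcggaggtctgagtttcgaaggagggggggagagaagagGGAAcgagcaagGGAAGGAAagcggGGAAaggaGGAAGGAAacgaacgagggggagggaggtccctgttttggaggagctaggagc
ADAM8 had 5 matches, of which 3 were on the strand of the gene. ADAM15 had 1 match and ADAM10 had 8. Among the other genes, ADAM17 and ADAMTS6 had 3 matches each, ADAM19 had 2 and ADAM12 had 1. The core is short and common: 92.7% of the 35116 windows of this length held it, 18.6% held 5 or more matches and 1.7% held 8 or more. The AP-1 site TGAGTCA, or its reverse complement TGACTCA, was in none of the 7 windows and in 4.2% of all windows. A match is a run of letters and not a measured binding site.

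Values are FPKM, fragments per length of transcript and per mapped fragment of the library. Being per length, they allow levels to be compared between genes. The depth of each library is unknown. Before any result, 1 library stood apart: the library labelled ΔCRE 0 h replicate 1 had a summed FPKM of 1423335 against 566255 to 651080 in the other 11. In it all 10 markers of gut epithelium were at 1 FPKM or more, with a summed level of 12300 FPKM. In the other 11 libraries only 1 of them, EPCAM, reached 1 FPKM, between 5 and 8 were at 0, and the sum was 2.19 to 3.55 FPKM. That list was chosen after earlier results of these data had named gut epithelium as a candidate source of the library that stood apart. Its high level there was thus known beforehand. The 6 markers expected in MDA-MB-231 cells (VIM, CD44, EGFR, AXL, CAV1 and MSN) were present in every library, with a summed level of 2170 to 3370 FPKM in the 11 libraries and 1500 FPKM in the library that stood apart. In that library VIM (1200 FPKM), EGFR (1.98 FPKM) and MSN (56.2 FPKM) lay below the range of the other 11, and CD44, AXL and CAV1 lay inside it. EGFR read 14.9 to 34.7 FPKM in the other 11. Of the 6 markers expected to be low or absent, 3 (ERBB2, EPCAM and GATA3) reached 1 FPKM in each of these 11. The 6 summed to between 14.3 and 19.7 FPKM in the 11 libraries. In the library that stood apart they summed to 1250 FPKM, with EPCAM at 1140 and CDH1 at 52.3 FPKM. For the proteases, that library lay below the range of the other 11 for 6 genes, above it for ADAM15 and inside it for 3. ADAM10 read 2.88 FPKM there against 35.9 FPKM in ΔCRE 0 h replicate 2, and ADAM17 read 1.32 against 10.4 FPKM. Tests were therefore made on the 11 other libraries with limma on log2(FPKM + 1). The ΔCRE 0 h condition then rests on 1 library and is given as values without a test.

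ETS1, the gene whose element was altered, read 24.0 and 23.7 FPKM in WT cells at 0 h, 139 and 145 FPKM at 6 h, and 36.2 and 39.7 FPKM at 24 h. In ΔCRE cells it read 62.8 and 62.2 FPKM at 6 h and 29.3 and 30.7 FPKM at 24 h, with 16.5 FPKM at 0 h in replicate 2 and 5.08 FPKM in the library that stood apart. The ΔCRE libraries thus lay below both WT libraries at each time point. Fewer cells that express a gene and less of its RNA per cell cannot be told apart in such bulk samples.

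Levels spanned a wide range. In WT cells at 0 h ADAM15 was the most abundant with 58.9 ± 6.49 FPKM (SD, n = 2), followed by ADAM9, ADAM10, ADAM17, ADAM8 and ADAM19, and the other 4 genes were under 1 FPKM. ADAM15 stayed first in all 6 conditions. ADAM8 moved up in the order: in WT cells it was the fifth most abundant at 0 h and the second at 24 h, where its libraries (26.3 and 28.3 FPKM) and those of ADAM10 (25.1 and 26.3 FPKM) lay side by side. The 10 genes summed to between 126 and 179 FPKM in the 11 libraries. ADAM9, ADAM10, ADAM15 and ADAM17 together made up between 74.5% and 89.8% of that sum.

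**Figure D1:**
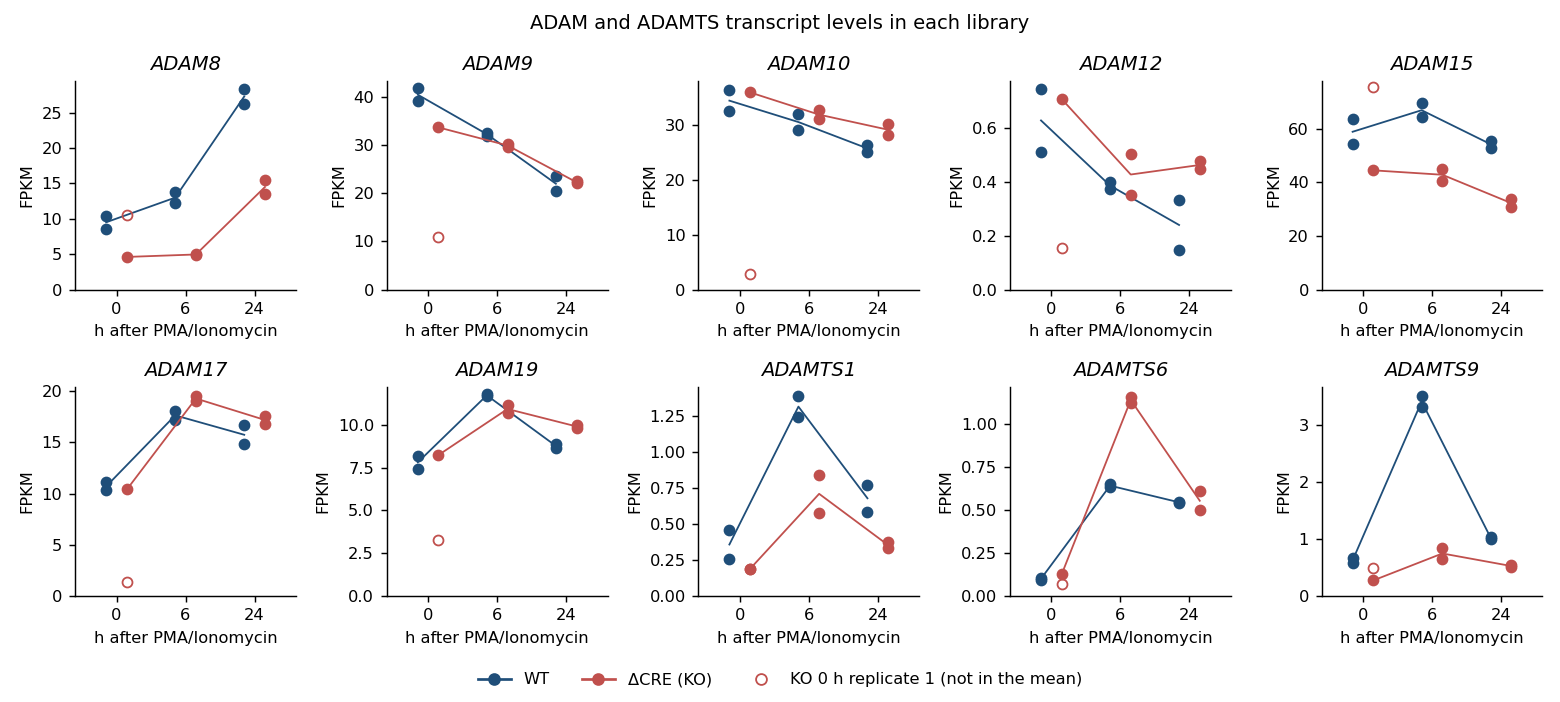
FPKM (y axis, from 0, a separate scale per panel) of each protease gene at 0, 6 and 24 h of PMA/Ionomycin (x axis, h) in WT (blue) and ΔCRE (red) cells; each filled point is a library, lines join the condition means and the open red circle is ΔCRE 0 h replicate 1, which is left out of the mean. ADAM8, ADAM15 and ADAMTS9 lie lower in ΔCRE cells at 6 and 24 h, whereas ADAM9, ADAM10, ADAM17 and ADAM19 lie close together in both.

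The first question was how the proteases responded to PMA/Ionomycin in WT cells. A gene is said to have passed the test, or to have changed, when its limma p-value, corrected across the 11256 features that averaged 1 FPKM or more (Benjamini-Hochberg), was under 0.05. Of the 10 proteases, 7 were among those features, and ADAM12, ADAMTS1 and ADAMTS6 were not, as their means were 0.454, 0.637 and 0.553 FPKM. ADAMTS9 passed the filter through its WT 6 h libraries, since its mean was 1.17 FPKM over the 11 libraries and 0.675 FPKM without those libraries. At 6 h 4 of the 7 tested proteases rose and 1 fell, where 23.3% of all tested features rose and 21.1% fell. At 24 h against 0 h 3 rose and 2 fell, where 26.5% of features rose and 28.2% fell. The median log2 difference of the 7 was 0.42 at 6 h and 0.15 at 24 h, and that of all tested features was 0.00 and −0.02. With all 12 libraries in the fit, 1 of the 7 passed at 6 h (ADAMTS9) and 1 at 24 h (ADAM8), where 7.34% and 10.5% of all features tested in that fit passed. Rescaling to TPM moved the median of all features at 6 h to −0.12 and the share of rises among calls from 52.5% to 35.0%.

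Among the sheddases, ADAM17 rose by 6 h and was still above its 0 h level at 24 h. It read 10.3 and 11.1 FPKM at 0 h, 17.2 and 18.1 FPKM at 6 h, and 14.8 and 16.7 FPKM at 24 h in WT cells, so that no stimulated library overlapped the unstimulated ones. The log2 difference from 0 h was 0.68 ± 0.07 (SE, limma adjusted p = 0.000137) at 6 h and 0.52 ± 0.07 (limma adjusted p = 0.000422) at 24 h. In ΔCRE cells it read 10.4 FPKM at 0 h in replicate 2, 19.1 and 19.5 FPKM at 6 h, and 16.8 and 17.6 FPKM at 24 h. The rise was thus also present in the ΔCRE values.

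ADAM8, a sheddase first known from myeloid cells, rose late. In WT cells it read 10.4 and 8.63 FPKM at 0 h, 13.8 and 12.2 FPKM at 6 h, and 28.3 and 26.3 FPKM at 24 h. Both 24 h libraries lay far above all earlier ones, with a level of 287% of the mean at 0 h. The log2 difference from 0 h was 0.42 ± 0.10 (limma adjusted p = 0.00979) at 6 h and 1.43 ± 0.10 (limma adjusted p = 1.06e-05) at 24 h. The smaller rise at 6 h no longer passed without WT 0 h replicate 2 (log2 difference 0.30, limma adjusted p = 0.067) or without WT 6 h replicate 1 (0.34, limma adjusted p = 0.0781).

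ADAM19, also called meltrin beta and known to process neuregulins, had a peak at 6 h. It read 8.20 and 7.44 FPKM at 0 h, 11.8 and 11.7 FPKM at 6 h, and 8.91 and 8.66 FPKM at 24 h. The 6 h libraries lay above all others of WT cells, with a log2 difference of 0.53 ± 0.06 (limma adjusted p = 0.000237) from 0 h and a fall of −0.38 ± 0.06 (limma adjusted p = 0.0014) from 6 to 24 h.

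ADAM9 and ADAM10 moved the other way. ADAM9 read 39.2 and 41.8 FPKM at 0 h, 32.0 and 32.6 FPKM at 6 h, and 20.5 and 23.5 FPKM at 24 h, a level at 24 h of 54.4% of that at 0 h. The 3 time points did not overlap, with log2 differences from 0 h of −0.32 ± 0.07 (limma adjusted p = 0.00652) at 6 h and −0.85 ± 0.07 (limma adjusted p = 2.55e-05) at 24 h. ADAM10 read 32.5 and 36.3 FPKM at 0 h, 29.1 and 31.9 FPKM at 6 h, and 25.1 and 26.3 FPKM at 24 h. Its fall passed the test at 24 h (log2 difference −0.40 ± 0.07, limma adjusted p = 0.00203) and not at 6 h (−0.17 ± 0.07, limma adjusted p = 0.1). ADAM15, known as metargidin for its integrin-binding motif, read 63.5 and 54.3 FPKM at 0 h, 69.6 and 64.3 FPKM at 6 h, and 55.6 and 52.9 FPKM at 24 h. It did not pass the test against 0 h, with log2 differences of 0.19 ± 0.09 at 6 h and −0.11 ± 0.09 at 24 h. ADAM12, which can release HB-EGF, stayed under 1 FPKM in every library. Its WT values were 0.512 and 0.745 FPKM at 0 h, 0.372 and 0.401 FPKM at 6 h, and 0.146 and 0.334 FPKM at 24 h, and its fall at 24 h passed the test in a fit with no filter on low values, where 18.2% of features fell (log2 difference −0.39 ± 0.10, limma adjusted p = 0.0173).

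The secreted proteases were low at 0 h and were all higher at 6 h. ADAMTS9, which cuts versican, read 0.584 and 0.660 FPKM at 0 h, 3.33 and 3.51 FPKM at 6 h, and 1.04 and 1.0 FPKM at 24 h. Its 6 h mean was 5.49 times that at 0 h, and the log2 difference was 1.45 ± 0.10 (limma adjusted p = 8.88e-06). It then fell by 1.13 ± 0.10 on the log2 scale from 6 to 24 h (limma adjusted p = 5.29e-05). Its 24 h level was still above that at 0 h (0.32 ± 0.10, limma adjusted p = 0.0221), a call that was lost without either WT 24 h library or without WT 0 h replicate 1 (limma adjusted p = 0.0765, 0.0558 and 0.0666) and after quantile normalization (0.286).

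ADAMTS1, an aggrecan- and versican-cutting protease, read 0.459 and 0.253 FPKM at 0 h, 1.24 and 1.39 FPKM at 6 h, and 0.771 and 0.584 FPKM at 24 h in WT cells. ADAMTS6, a close relative of ADAMTS10 that acts on microfibril and latent TGF-beta binding proteins, read 0.105 and 0.0925 FPKM, then 0.651 and 0.631 FPKM, then 0.548 and 0.540 FPKM. The 6 h libraries of both genes lay above the 0 h libraries without overlap. In the fit with no filter both rises at 6 h passed the test, where 15.0% of the features in that fit rose, with log2 differences of 0.77 ± 0.10 for ADAMTS1 (limma adjusted p = 0.00194) and 0.58 ± 0.04 for ADAMTS6 (limma adjusted p = 0.000108). Adding 1 FPKM before taking logs understates the change of such low genes, and the ADAMTS6 mean at 6 h was 6.51 times that at 0 h.

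**Figure D2:**
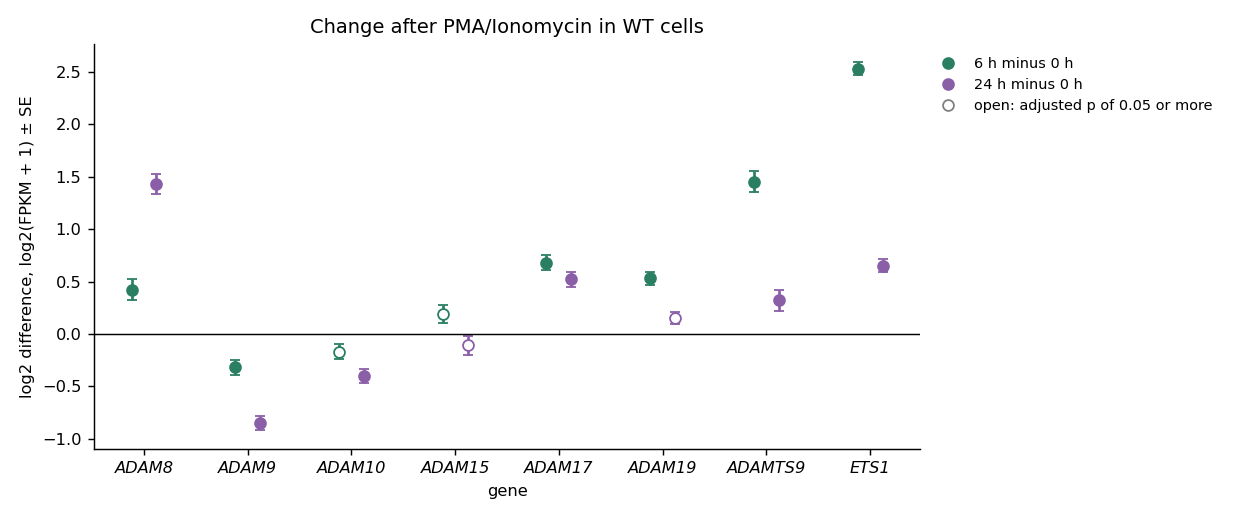
Log2 difference (y axis, log2(FPKM + 1), ± SE of the limma fit) from 0 h at 6 h (green) and 24 h (purple) in WT cells for the 7 tested proteases and ETS1 (x axis); open symbols did not pass an adjusted p of 0.05. ADAMTS9 is highest among the proteases at 6 h (1.45) and ADAM8 at 24 h (1.43), and ADAM9 lies lowest at both times.

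From 6 to 24 h, 1 of the 7 tested proteases (ADAM8, log2 difference 1.02 ± 0.10) rose in WT cells and 5 fell, where 20.5% of all tested features rose and 26.3% fell. The 2 weaker falls were those of ADAM15 (−0.30 ± 0.09, limma adjusted p = 0.0244) and ADAM10 (−0.24 ± 0.07, limma adjusted p = 0.0296). Neither passed after quantile normalization (limma adjusted p = 0.0967 and 0.172) or rescaling to TPM (0.0563 and 0.305). Leaving out WT 24 h replicate 1 or WT 24 h replicate 2 also ended both calls, with limma adjusted p = 0.0615 and 0.114 for ADAM15 and 0.141 and 0.0644 for ADAM10. The ADAM15 call was likewise lost without WT 6 h replicate 1 (0.138) and the ADAM10 call without WT 6 h replicate 2 (0.174). In ΔCRE cells from 6 to 24 h 1 of 7 rose and 2 fell, where 22.1% of features rose and 27.5% fell. ADAM8 rose in ΔCRE cells from 4.95 and 4.97 to 15.5 and 13.5 FPKM (log2 difference 1.38 ± 0.10, limma adjusted p = 2.12e-05). ADAM9, at 33.7 FPKM at 0 h in replicate 2, fell from 29.6 and 30.3 to 22.1 and 22.5 FPKM (−0.41 ± 0.07, limma adjusted p = 0.00168) and ADAM15 from 45.0 and 40.7 to 33.7 and 30.8 FPKM (−0.40 ± 0.09, limma adjusted p = 0.00628). With all 12 libraries in the fit, 1 of the 7 passed from 6 to 24 h in WT cells (ADAMTS9) and 1 in ΔCRE cells (ADAM8), where 4.98% and 7.24% of all features passed. Rescaling to TPM moved the share of rises among all calls from 43.7% to 64.3% in WT and from 44.6% to 60.7% in ΔCRE cells.

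The second question was which proteases differed between ΔCRE and WT cells. At 6 h 3 of the 7 tested proteases were lower in ΔCRE cells, where 6.22% of all tested features were lower, and 0 were higher at an adjusted or an unadjusted p under 0.05, where 3.62% of features were higher. At 24 h the same 3 were lower, where 3.97% of features were lower and 2.35% higher. At that time 0 proteases were higher at an adjusted p under 0.05 and 2 at an unadjusted p under 0.05. The median log2 difference of the 7 was −0.11 at 6 h and 0.02 at 24 h, and that of all tested features was 0.01 at both. Rescaling to TPM moved the share of higher features among the calls at 24 h from 37.2% to 24.7%. One of the 3 lower genes, ADAMTS9, was tested only because it is high in WT cells at 6 h. ADAM8 and ADAM15 are named in the study's discussion among genes altered in ΔCRE cells, from the same RNA-sequencing. The proteases were chosen with earlier results of these data known, so the counts beside the shares of all features are not independent support.

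ADAM8 was lower in ΔCRE cells at 6 and 24 h. Its ΔCRE libraries read 4.61 FPKM at 0 h (replicate 2), 4.95 and 4.97 FPKM at 6 h, and 15.5 and 13.5 FPKM at 24 h, each below both WT libraries of that time. The level in ΔCRE cells was 38.2% of that in WT cells at 6 h (log2 difference −1.23 ± 0.10, limma adjusted p = 0.000294) and 53.2% at 24 h (−0.87 ± 0.10, limma adjusted p = 0.00256). At 0 h replicate 2 alone was 48.6% of the WT mean, while the library that stood apart read 10.6 FPKM, slightly above both WT libraries.

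ADAM15 was also lower. It read 44.5 FPKM at 0 h (replicate 2), 45.0 and 40.7 FPKM at 6 h, and 33.7 and 30.8 FPKM at 24 h in ΔCRE cells, and no ΔCRE library of the 5 reached a WT library. The level was 64.0% of WT at 6 h (log2 difference −0.63 ± 0.09, limma adjusted p = 0.00398) and 59.5% at 24 h (−0.73 ± 0.09, limma adjusted p = 0.00308). The library that stood apart read 75.6 FPKM, above all others. The ADAM15 feature (chr1:155006282-155042029, hg19) shares its locus in the table with features for DCST1, EFNA4 and LOC100505666, and the annotated ADAM15 gene on the plus strand runs from 155023042 to 155035251. DCST1 stayed at or under 0.0568 FPKM in the 11 libraries. EFNA4 had log2 differences of −0.20 at 6 h and −0.15 at 24 h, which did not pass the test (limma adjusted p = 0.346 and 0.539).

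ADAMTS9 differed most at 6 h. Its ΔCRE libraries read 0.269 FPKM at 0 h (replicate 2), 0.843 and 0.644 FPKM at 6 h, and 0.534 and 0.510 FPKM at 24 h. At 6 h these lay far below the WT libraries, at 21.8% of their mean, with a log2 difference of −1.34 ± 0.10 (limma adjusted p = 0.000149). This test draws on the WT 6 h values through which ADAMTS9 passed the filter. The call was also made in the fit with no filter. At 24 h the log2 difference of −0.41 ± 0.10 was close to the threshold (limma adjusted p = 0.0437). It was lost when any of WT 6 h replicate 1, WT 6 h replicate 2, WT 24 h replicate 1, WT 24 h replicate 2, ΔCRE 24 h replicate 1 or ΔCRE 24 h replicate 2 was left out (limma adjusted p = 0.0589, 0.0558, 0.192, 0.137, 0.126 and 0.186). It was also lost when all libraries were set to the same median (0.0526). The ADAMTS9 feature (chr3:64501331-64997143, hg19) covers the gene, which runs from 64501330 to 64673676 on the minus strand, and shares its locus with the antisense feature ADAMTS9-AS2, which read between 0.0721 and 0.315 FPKM. Whether fragments were assigned by strand is not given in the sources used here.

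Except for ADAMTS9 at 6 h, these calls between genotypes were lost when the library that stood apart was in the fit. With all 12 libraries in the fit, 1 of 7 proteases passed at 6 h (ADAMTS9) and 0 at 24 h, where 2 were under an unadjusted p of 0.05. Calls were lost across the whole table: 20 of the 11676 features tested in that fit passed at 6 h (0.171%) and 17 at 24 h (0.146%), against 1107 and 712 with 11 libraries. The log2 differences at 6 and 24 h were the same by construction, and the limma adjusted p was 0.301 for ADAM8 and 0.724 for ADAM15 at 6 h, and 0.882 for ADAM8, 0.769 for ADAM15 and 1.0 for ADAMTS9 at 24 h.

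The other 4 tested sheddases did not pass the test between genotypes. The log2 differences of ΔCRE minus WT cells at 6 and 24 h were −0.11 ± 0.07 and 0.02 ± 0.07 for ADAM9, 0.06 ± 0.07 and 0.17 ± 0.07 for ADAM10, 0.12 ± 0.07 at both times for ADAM17, and −0.09 ± 0.06 and 0.16 ± 0.06 for ADAM19. The sign for ADAM9 at 24 h is not fixed, being 0.00 after rescaling to TPM and −0.07 without WT 24 h replicate 1. In ΔCRE cells ADAM10 read 35.9 FPKM at 0 h (replicate 2), 32.7 and 31.0 FPKM at 6 h, and 28.1 and 30.1 FPKM at 24 h. ADAM19 read 8.25 FPKM, then 11.2 and 10.7 FPKM, then 9.99 and 9.86 FPKM.

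Among the genes under the filter, ADAMTS6 differed upward and ADAMTS1 read lower. ADAMTS6 in ΔCRE cells read 0.125 FPKM at 0 h (replicate 2), 1.12 and 1.16 FPKM at 6 h, and 0.499 and 0.607 FPKM at 24 h. At 6 h both ΔCRE libraries lay above both WT libraries, at 1.78 times their mean, and the difference passed in the fit with no filter, where 1.93% of features were higher (log2 difference 0.38 ± 0.04, limma adjusted p = 0.00479). At 24 h the genotypes overlapped. ADAMTS1 read 0.187 FPKM, then 0.577 and 0.840 FPKM, then 0.371 and 0.332 FPKM. Its ΔCRE values at 6 h were 53.9% of WT and did not pass in that fit (log2 difference −0.44 ± 0.10, limma adjusted p = 0.062), nor at 24 h (−0.31 ± 0.10, limma adjusted p = 0.181). ADAM12 read 0.708 FPKM at 0 h (replicate 2), 0.502 and 0.353 FPKM at 6 h, and 0.477 and 0.449 FPKM at 24 h in ΔCRE cells. It did not pass at 6 or 24 h.

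**Figure D3:**
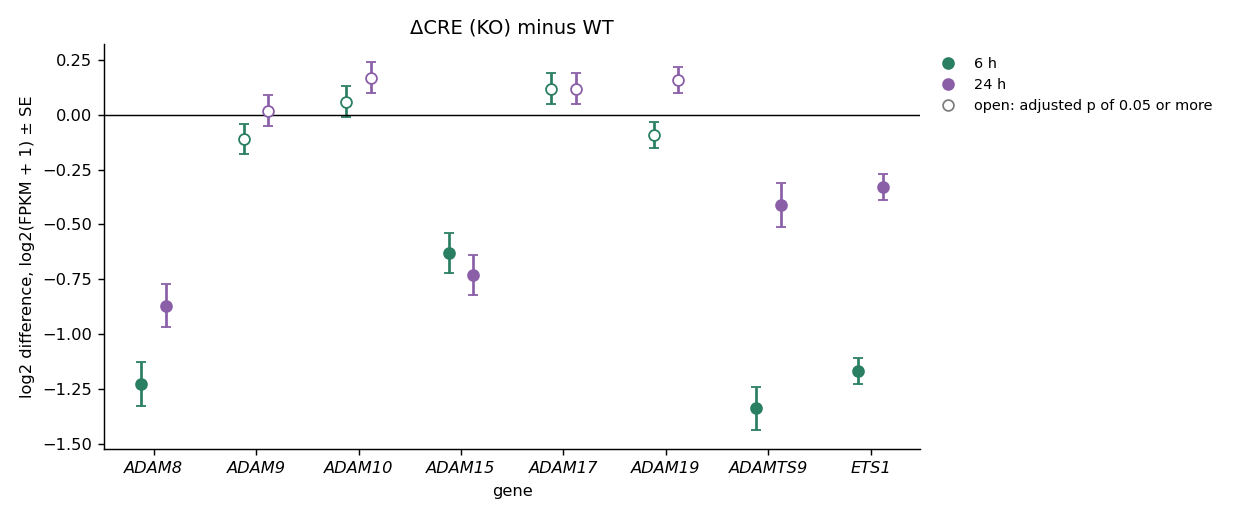
Log2 difference of ΔCRE minus WT cells (y axis, log2(FPKM + 1), ± SE of the limma fit) at 6 h (green) and 24 h (purple) for the 7 tested proteases and ETS1 (x axis); open symbols did not pass an adjusted p of 0.05. ADAM8, ADAM15 and ADAMTS9 lie below 0 at both times, and the other 4 proteases lie between −0.11 and 0.17.

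Whether the genotypes differed in the change from 6 to 24 h was tested as an interaction. Of the 7 proteases 0 passed, where 0.16% of all tested features did, and 3 had an unadjusted p under 0.05. ADAMTS9 was nearest, with a difference of 0.94 ± 0.14 (limma adjusted p = 0.0516): it fell by 1.13 in WT and by 0.19 in ΔCRE cells on the log2 scale. It passed with no filter (limma adjusted p = 0.0377), without the trend in the limma prior (0.0316) and without ΔCRE 0 h replicate 2 (0.0469). In the other settings that kept the 11 libraries it did not pass (limma adjusted p up to 0.27), nor did it with all 12 libraries. With 1 library left out the difference ranged from 0.85 to 1.02. The WT 6 h values, through which ADAMTS9 passed the filter, enter this difference. ADAM8, which rose in both genotypes, had a difference of 0.36 ± 0.14 (limma adjusted p = 0.676). ETS1 itself had a difference of 0.84 ± 0.08 (limma adjusted p = 0.0247).

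The genes around each protease were measured in the same libraries. ADAM8 (chr10:135075920-135090407, hg19, minus strand) lies near the end of the long arm of chromosome 10. Of the 14 other tested features within 5 Mb, 5 were lower in ΔCRE cells at 6 h (35.7%) and 6 at 24 h (42.9%), against 6.22% and 3.97% of all tested features. Their median log2 differences were −0.26 and −0.28, and none was as low as ADAM8. Chosen after their values were seen, the 5 at 6 h were BNIP3 (−0.81 ± 0.07), TUBGCP2 (−0.42 ± 0.08), INPP5A (−0.41 ± 0.07), PPP2R2D (−0.29 ± 0.06) and MTG1 (−0.27 ± 0.07). Around ADAM12, also on the long arm of chromosome 10, 9 of 27 features were lower at 6 h and the median was −0.22. Around ADAMTS9 2 of 17 features were lower at 6 h, MAGI1 (−0.29) and FRMD4B (−0.43), and the median was −0.01. Around ADAM15 8 of 133 were lower at 6 h, the median was 0.01, and 2, EFNA1 (−0.96) and S100A4 (−0.76), were lower than ADAM15. Around ADAM9 the median of 34 features was −0.18, with 6 lower. The part of a shared regional difference in the ADAM8 result was not tested.

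Genes with a time course like those of the proteases with the widest range over conditions were found by the root mean square difference of centred log2(FPKM + 1) over the 11 libraries. For ADAM8 these were BNIP3, a mitochondrial protein known as a hypoxia target (difference 0.16), KCNAB2, a potassium channel subunit (0.21), and GSN, the actin-severing protein gelsolin (0.21). BNIP3 averaged 40.3, 44.9 and 107 FPKM over the 3 times in WT cells, and 25.1 and 66.6 FPKM in ΔCRE cells at 6 and 24 h. Its start lies at −1.29 Mb relative to that of ADAM8. For ADAMTS9 these were RGS16, a regulator of G protein signalling (0.23), C11orf95 (0.24), and KCNS3, a potassium channel subunit (0.25). RGS16 averaged 0.445, 2.53 and 1.31 FPKM in WT cells over the 3 times, and 0.819 and 0.599 FPKM in ΔCRE cells at 6 and 24 h.

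Most other members of the families were near 0 in these cells. Of 14 other ADAM genes 12 stayed under 0.1 FPKM in all 11 libraries, and of 23 other ADAMTS and ADAMTS-like genes 10 did. One ADAM gene, the catalytically inactive ADAM22, and 3 genes of the second list could be tested. ADAMTS15, an aggrecan- and versican-cutting protease, averaged 5.20 ± 0.305 FPKM (SD, n = 2) without stimulation and 1.38 ± 0.0954 FPKM after 6 h in WT cells, a fall of −1.38 ± 0.09 on the log2 scale (limma adjusted p = 8.44e-06), opposite to the rise of ADAMTS9. These 3 falls among 4 genes stand beside 21.1% of all features that fell. ADAM22 fell by 0.46 ± 0.14 at 6 h (limma adjusted p = 0.0251), and THSD4, a microfibril-associated relative, by 0.41 ± 0.08 (limma adjusted p = 0.00287). Between genotypes 0 of these 4 genes passed at 6 or 24 h, with 0 at 6 h and 1 at 24 h under an unadjusted p of 0.05, where 3.62% and 6.22% of all features were higher and lower at 6 h and 2.35% and 3.97% at 24 h. The count of 0 among 4 genes is near that share. The fall of ADAMTS15 also passed with all 12 libraries in the fit, and those of ADAM22 and THSD4 did not.

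The TIMP proteins inhibit metalloproteinases, and TIMP3 is the member best known for inhibiting ADAM17 and the ADAMTS enzymes. Of 5 tested inhibitor genes 1 was higher in ΔCRE cells at 6 h and 2 at 24 h, and 0 were lower at an adjusted p under 0.05, with 0 and 1 at an unadjusted p under 0.05. Of all features 3.62% were higher and 6.22% lower at 6 h, and 2.35% and 3.97% at 24 h. TIMP3 read 25.4 and 25.1 FPKM in WT and 48.7 and 48.4 FPKM in ΔCRE cells at 6 h (log2 difference 0.92 ± 0.05, limma adjusted p = 4.86e-05). At 24 h it read 8.08 and 8.21 FPKM in WT and 14.7 and 15.3 FPKM in ΔCRE cells (0.80 ± 0.05, limma adjusted p = 0.00014). The genotypes were thus well apart at both times. TIMP1, an inhibitor of ADAM10, was higher at 24 h, at 492 and 434 against 303 and 263 FPKM (0.71 ± 0.11, limma adjusted p = 0.00868), and its difference at 6 h was 0.05 ± 0.11. The median over the 5 genes was 0.05 at 6 h and 0.19 at 24 h, against 0.01 for all tested features. In WT cells at 6 h 2 inhibitor genes rose and 2 fell, where 23.3% and 21.1% of all features did, among them TIMP4 (−0.98 ± 0.11, limma adjusted p = 0.000174), TIMP1 (0.71 ± 0.11, limma adjusted p = 0.00106) and TIMP2 (−0.37 ± 0.05, limma adjusted p = 0.000443). In the fit of all 12 libraries 2 inhibitor genes (TIMP2 and TIMP4) passed in WT cells at 6 h, where 7.34% of features did, and the calls between genotypes were lost as in nearly all of the table.

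Of 14 tested partners and convertases, which carry ADAM10 and ADAM17 to the surface, bind ADAM tails or cut off the prodomains, 6 rose and 3 fell in WT cells at 6 h, where 23.3% and 21.1% of all features did, so that the falls were at about the share of all features. Of the rises, 3 were of genes for ADAM17 partners. FRMD8 went from 7.63 ± 0.0159 to 20.2 ± 0.468 FPKM (SD, n = 2, log2 difference 1.30 ± 0.05, limma adjusted p = 5.58e-07). RHBDF1 and RHBDF2, which encode the iRhom proteins, went from 5.33 ± 0.187 to 11.1 ± 0.227 FPKM and from 5.43 ± 0.131 to 11.4 ± 0.0886 FPKM (both log2 differences 0.94, limma adjusted p = 2.91e-05 and 5.57e-06). In ΔCRE against WT cells at 6 h 2 of the 14 were higher and 3 lower, the 24 h libraries gave 2 higher and 1 lower, and the median was −0.04 at both times. The shares of all features were 3.62% higher and 6.22% lower at 6 h, and 2.35% and 3.97% at 24 h. TSPAN14 and TSPAN15, tetraspanins that carry ADAM10, were higher at 6 h by 0.37 ± 0.06 (limma adjusted p = 0.00604) and 0.63 ± 0.08 (limma adjusted p = 0.00322). SH3PXD2A, the invadopodium scaffold TKS5 that binds tails of ADAM12, ADAM15 and ADAM19, was lower at 6 h (−0.45 ± 0.06, limma adjusted p = 0.00398) and at 24 h (−0.49 ± 0.06, limma adjusted p = 0.00447). RHBDF1 (−0.36 ± 0.08, limma adjusted p = 0.0226) and FRMD8 (−0.29 ± 0.05, limma adjusted p = 0.0124) were lower at 6 h. When all 12 libraries were fitted, 3 partners rose and 1 fell in WT cells at 6 h, FRMD8 and RHBDF2 among the rises, where 5.19% of features rose and 2.15% fell, and the calls between genotypes were lost.

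Of 27 tested genes for shed substrates 16 rose and 5 fell in WT cells at 6 h, where 23.3% and 21.1% of all features did, with a median log2 difference of 0.34 against 0.00 for all tested features. The falls were near the share of all features. ICAM1, an adhesion molecule, rose from 1.56 and 1.91 to 260 and 256 FPKM (log2 difference 6.57 ± 0.07, limma adjusted p = 1.48e-10), and SDC4, a cell surface proteoglycan, rose by 2.50 ± 0.05 (limma adjusted p = 6.53e-09). AREG, an EGF receptor ligand that ADAM17 releases, rose by 2.02 ± 0.14 (limma adjusted p = 1.25e-05). In ΔCRE against WT cells both time points gave 6 higher and 2 lower genes, with medians of −0.05 and 0.05, where 3.62% of all features were higher and 6.22% lower at 6 h, and 2.35% and 3.97% at 24 h. The lower genes at 6 h were near the share of all features. EREG, the EGF receptor ligand epiregulin, read 31.8 and 30.1 FPKM in WT and 82.1 and 101 FPKM in ΔCRE cells at 6 h (1.53 ± 0.10, limma adjusted p = 0.000112). EFNB2, an ephrin, was higher by 0.91 ± 0.08 (limma adjusted p = 0.000489) and NOTCH1 lower (−0.61 ± 0.08, limma adjusted p = 0.00282) at 6 h. At 24 h EREG (1.19 ± 0.10, limma adjusted p = 0.000514), AREG (0.72 ± 0.14, limma adjusted p = 0.0231) and the Notch ligand JAG1 (0.71 ± 0.05, limma adjusted p = 0.000271) were higher. With all 12 libraries in the fit, 7 of 29 rose and 3 fell in WT cells at 6 h, ICAM1, SDC4 and AREG among them, where 5.19% and 2.15% of features did, and between genotypes 1 (EFNB2) was higher at 6 h while the other calls were lost.

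Of 19 genes for ADAMTS substrates only 5 could be tested, and 2 rose and 2 fell in WT cells at 6 h, where 23.3% and 21.1% of all features did. TFPI2, an inhibitor of serine proteases, rose by 2.14 ± 0.08 (limma adjusted p = 2.27e-07), SDC4, which both substrate lists hold, is given above, and THBS1, thrombospondin 1, changed by −0.27 ± 0.05 (limma adjusted p = 0.00446). In ΔCRE against WT cells 1 of the 5 was higher and 2 were lower at 6 h, and 3 were lower at 24 h, with medians of −0.15 and −0.50, where 3.62% of all features were higher and 6.22% lower at 6 h, and 3.97% lower at 24 h. LTBP1, which binds latent TGF-beta, was lower at 6 h (−0.56 ± 0.05, limma adjusted p = 0.000737) and at 24 h (−0.50 ± 0.05, limma adjusted p = 0.00196). THBS1 was lower at 6 h (−0.33 ± 0.05, limma adjusted p = 0.00804) and at 24 h (−0.51 ± 0.05, limma adjusted p = 0.00158), TFPI2 was lower at 24 h (−0.53 ± 0.08, limma adjusted p = 0.00698), and FBN1, fibrillin 1, was higher at 6 h (0.25 ± 0.06, limma adjusted p = 0.0469). With all 12 libraries in the fit, 2 of 6 rose (SDC4 and TFPI2) and 0 fell in WT cells at 6 h, where 5.19% and 2.15% of features did. The calls between genotypes were lost in that fit.

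**Figure D4:**
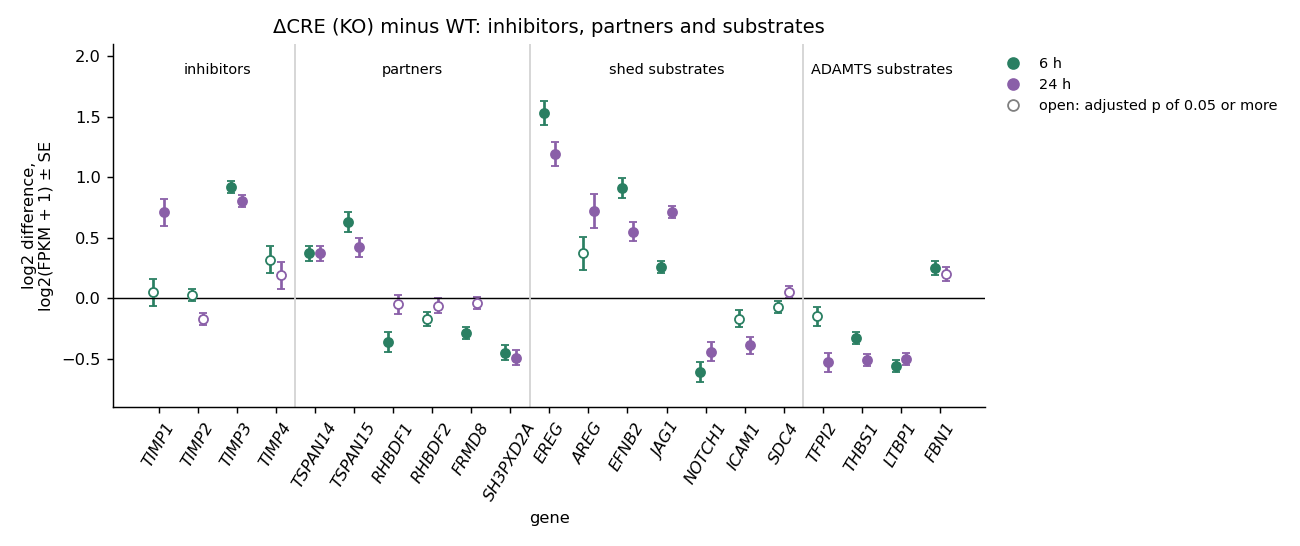
Log2 difference of ΔCRE minus WT cells (y axis, log2(FPKM + 1), ± SE of the limma fit) at 6 h (green) and 24 h (purple) for named inhibitors, partners, shed substrates and ADAMTS substrates (x axis, separated by grey lines); open symbols did not pass an adjusted p of 0.05. EREG at 6 h (1.53) is the highest point shown, and TIMP3 is at 0.92 at 6 h and 0.80 at 24 h.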

How the data were processed

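RNA-sequencing was analysed in 12 libraries of WT and ΔCRE MDA-MB-231 cells, grouped by the genotype, time and replicate in their labels. The authors prepared stranded mRNA libraries, mapped the sequences to hg19 with TopHat, estimated expression with Cufflinks and deposited FPKM values for 24331 features. The gene annotation, the scaling between libraries and the depth are not given in the sources used here. The columns for ΔCRE 0 h and 6 h replicate 2 carry a misspelt name and were assigned to the labels that no other column matches.

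From the deposited FPKM values, log2(FPKM + 1) of the 11256 features with a mean of at least 1 FPKM over 11 libraries (without ΔCRE 0 h replicate 1) was fitted with limma 3.58.1 in R 4.3.3 (lmFit, eBayes with a trend, 1 model of 6 groups). P-values are two-sided, were corrected for all 11256 features (Benjamini-Hochberg adjusted p), and were called under 0.05. On simulated data for ΔCRE minus WT cells at 6 h with 11256 features, of which 200 were changed by 1 on the log2 scale, 94% were recovered and 2.1% of the calls were false. The simulated noise was Gaussian and independent between libraries and features, with no other change between conditions. These rates are thus not those of the real data. Fits with no filter served genes under 1 FPKM.

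The members, the gene lists, the markers and the tests were chosen with earlier results of these data known. Named were all 10 proteases and ETS1, up to 3 genes per list with the largest change among those past the threshold in ΔCRE minus WT at 6 and 24 h and in WT at 6 h, the 3 features most like each of the 2 proteases with the widest range, and features within 5 Mb by their median. Alternatives were all 12 libraries, a pseudocount of 0.1, no filter, a mean of at least 5 FPKM, quantile normalization, TPM, the same median, only the libraries of a comparison, a replicate block, eBayes without its trend, and leaving out each of the 11 libraries. Promoter windows were read from the RefSeq table of GRCh38.p14, and gene positions from GENCODE on GRCh37, the build called hg19. Tables were made with Python 3.11.15, pandas 2.3.3 and matplotlib 3.10.9.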

Additional observations from a re-analysis of the deposited data

Results flagged for a closer look

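Genes of the families and their inhibitors that were near 0 elsewhere had a signal in ΔCRE 0 h replicate 1, a library the tests did not use. ADAM28, a lymphocyte ADAM, was at 0.565 FPKM there and at most 0.0763 FPKM in the other 11 libraries. ADAMTS2, a procollagen-processing protease, was at 0.623 FPKM and at most 0.0288 FPKM elsewhere. A2M, the plasma protease inhibitor alpha-2-macroglobulin, was at 11.1 FPKM and at most 0.0603 FPKM elsewhere. The limits behind this choice were at least 0.5 FPKM in that library and under 0.1 FPKM in each of the others.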

How the results depend on the processing

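Of 25 changes of the proteases that passed the test, 0 reversed their sign under any alternative. For many alternatives this was fixed by construction. Changing the filter, the trend, the replicate term or libraries outside a comparison leaves its log2 differences as they are. The largest effect came from fitting all 12 libraries: 1 of 7 proteases then passed in WT at 6 h against 0 h, 24 h against 0 h and 24 h against 6 h, 1 in ΔCRE at 24 h against 6 h, 1 in ΔCRE minus WT at 6 h and 0 at 24 h, where the 11-library fit called 5, 5, 6, 3, 3 and 3 and the calls over all features fell likewise. With no filter on low values, which tests all 10 proteases, 5 passed in ΔCRE from 6 to 24 h (ADAM8, ADAM9, ADAM15, ADAMTS1 and ADAMTS6) and 1 in the interaction, which 1 also passed in the fit without the trend and 0 to 1 when 1 library was left out. Leaving out 1 library gave 4 to 7 calls in WT at 6 h, 4 to 5 at 24 h, 4 to 6 from 6 to 24 h, 3 in ΔCRE from 6 to 24 h, 3 in ΔCRE minus WT at 6 h and 2 to 3 at 24 h. Among differences that did not pass, the sign changed for ADAM9 at 24 h between genotypes (0.00 with TPM, −0.07 to 0.12 with 1 library left out). It also changed for ADAM17 in the interaction (0.01 after quantile normalization, −0.08 to 0.08 with 1 library left out). ADAM10 at 6 h between genotypes went to 0.00 without WT 6 h replicate 1 (0.00 to 0.13 with 1 library left out), so its sign is not fixed either. The cause was not tested. The deviations of same-numbered libraries correlated at r of −0.0676 to 0.202 over 10 pairs of conditions. These weak correlations over all features do not settle whether the replicate numbers pair the samples. In every condition with both libraries in the fit, replicate 1 read below replicate 2 for ADAM9 and ADAM17. For ADAM15 and ADAM19 it read above replicate 2, and the other tested proteases had no fixed order. The main fit has no replicate term. With the replicate block 7, 6, 7, 4, 3, 3 and 0 proteases passed in the 7 comparisons, and 5 of 49 values crossed the threshold toward a call. No share of all features stands beside the counts with the block, with no filter, without the trend or with 1 library left out. Whether those counts moved with the whole table is therefore not shown. FPKM keeps no depth, so the precision of low genes such as ADAMTS6 is unknown, and 2 replicates per condition limit every test.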
